A study of Homo sapiens with 6 samples.

Results

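The BCL2 family genes described here are 10 in number: the anti-apoptotic genes BCL2, BCL2L1, MCL1 and BCL2A1, the pore-forming effector genes BAX and BAK1, and the BH3-only genes BBC3, PMAIP1, BCL2L11 and BMF. They were taken by symbol and matched to NCBI gene identifiers, and all 10 were found among the 40895 genes of the count files. All 10 had enough counts to be tested, among 15954 tested genes. The cells were A375SM, an established human melanoma line derived from A375 for its spread to distant organs, with the genotype labelled WT. Short hairpin RNAs set the groups apart: shCtrl (3 libraries) had a control hairpin, and shPRAME (3 libraries) a hairpin against the mRNA of PRAME, a cancer-testis antigen. All 6 libraries were treated as 1 batch. How many hairpins or clones each group represents, and whether the 3 libraries of a group came from separate transductions, is not given in the sources used here. P-values therefore reflect variation among 3 libraries a group, and that variation may be technical only.

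The BCL2 family sets whether mitochondria release cytochrome c and start the caspase cascade. Anti-apoptotic members hold the effectors BAX and BAK1 in check, BH3-only proteins bind the anti-apoptotic members or the effectors directly, and active BAX and BAK1 form pores in the outer mitochondrial membrane. In melanoma cells MCL1 and BCL2A1 are known survival factors, BCL2A1 being a known target of the lineage factor MITF, and BIM (BCL2L11) and BMF are BH3-only proteins held down by MAP kinase signalling. Much of this control acts on protein stability and binding, which mRNA levels do not show.

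Libraries held 30842788 to 34107332 counts. PRAME mRNA fell from 165.0 ± 1.265 to 56.4 ± 2.30 CPM (counts scaled to a common library size, with TMM factors; mean ± SD, n = 3 each), a log2 fold change of -1.55 (edgeR adjusted p = 4.85e-17), so the libraries carry the knockdown that their labels give. Of 8 melanoma markers 3 were tested: SOX10, at 265.7 ± 7.95 and 275.4 ± 1.48 CPM, MITF, at 44.6 ± 1.38 and 37.7 ± 0.740 CPM, and S100B, at 54.0 ± 0.629 and 28.2 ± 1.26 CPM. SOX10 did not pass the test used below (edgeR adjusted p = 0.0760), and the other pair fell. The pigment genes PMEL, MLANA, DCT and TYRP1 had at most 11 counts in a library, and TYR had none. Fibroblast markers summed to 112.5 to 116.3 CPM in shCtrl and 88.1 to 95.3 CPM in shPRAME (5 of 7 tested rose and 2 fell). PDGFRB fell from 64.3 ± 1.86 to 17.4 ± 1.32 CPM and FAP from 46.1 ± 1.202 to 26.99 ± 0.771 CPM, whereas COL1A2 had no count in any shCtrl library and 704 to 735 counts in the shPRAME libraries. LUM (0 to 1 counts and 303 to 347 counts) and COL3A1 (0 to 2 and 73 to 103 counts) showed the same gap. Leukocyte markers summed to 43.1 to 45.4 and 72.4 to 74.3 CPM, nearly all of it CD68 (43.9 ± 1.16 and 70.7 ± 0.767 CPM). All 3 tested rose, among them LYZ (0.0707 ± 0.0437 to 1.31 ± 0.155 CPM) and PTPRC (no count in shCtrl, 27 to 36 in shPRAME), and CD3E and MS4A1 had no count in any library. Of the keratinocyte markers KRT10 fell (28.2 ± 1.08 to 23.4 ± 0.613 CPM), KRT14 was below 1 CPM, and KRT5 and KRT1 had no count. Of the endothelial markers KDR, PECAM1 and VWF were below 1 CPM and CDH5 had no count. The part of these markers in the results below was not tested.

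Knockdown and control cells differed in most of the family, but in no common direction. A gene passed at an edgeR adjusted p (quasi-likelihood test, Benjamini-Hochberg over all tested genes) under 0.05. Of the 10 genes 5 rose (MCL1, BAX, BBC3, PMAIP1 and BCL2L11), 4 fell (BCL2L1, BCL2A1, BAK1 and BMF) and BCL2 did not pass. Among all tested genes 74.4% passed, 37.7% higher and 36.8% lower in shPRAME, the background against which the 9 of 10 must be read. Bulk RNA cannot tell fewer cells of a type apart from less RNA per cell. Only PMAIP1, BMF and BCL2A1 passed and changed at least 1.5-fold, 3 of 10 against 32.6% of all tested genes. Against a minimum fold of 1.2 (glmTreat) these same 3 passed, where 48.4% of all tested genes did. BMF alone fell at least 2-fold, as did 8.43% of all tested genes, while 10.1% rose at least 2-fold and no member did. The median log2 fold change was 0.14 over the family and 0.0061 over all tested genes. In 9 of the 10 genes no shPRAME library overlapped a shCtrl library, as in 76.5% of all tested genes (38.7% higher and 37.8% lower in shPRAME). The exception was BBC3.

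**Figure D1:**
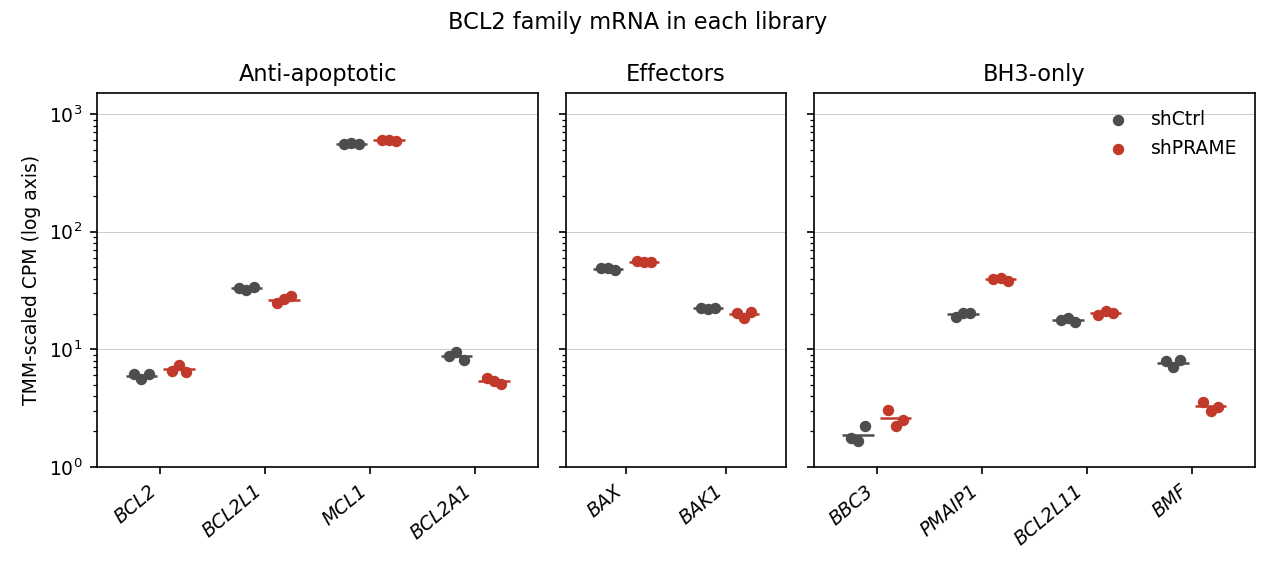
TMM-scaled CPM (log axis) of the 10 genes in each library, by role; points are libraries, lines are means of 3. PMAIP1 lies at 19.8 CPM in shCtrl and 39.3 in shPRAME, and BMF at 7.68 and 3.26, while MCL1 stands above all other members in both groups (558.7 and 599.6 CPM).

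Sequence just upstream of the start is shown for the 3 genes that passed at 1.5-fold or more, and for BAX, which held the most E-boxes of the 9 genes searched. Windows of 250 bases before the annotated start came from RefSeq (GRCh38.p14), where 9 of the 10 genes matched, with 11 starts. MCL1 was not among them. The BCL2 window, the further windows of BCL2L1 and BMF, and part of the BBC3 window lie within the spans given below for these genes. Printed stretches end where a GENCODE exon of the gene begins, and for BCL2A1, whose window lies within an exon, 30 bases are printed. Capitals mark an E-box, its CATGTG relative or a CRE half-site, the last read as CGTCA where it lies on the other strand.
PMAIP1, chr18:59899746-59899947, plus strand: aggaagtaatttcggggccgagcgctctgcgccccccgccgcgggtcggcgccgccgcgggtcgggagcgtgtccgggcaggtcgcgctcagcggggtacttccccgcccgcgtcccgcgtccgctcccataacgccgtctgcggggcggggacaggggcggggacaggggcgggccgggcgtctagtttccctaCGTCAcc
BMF, chr15:40108893-40109129, minus strand: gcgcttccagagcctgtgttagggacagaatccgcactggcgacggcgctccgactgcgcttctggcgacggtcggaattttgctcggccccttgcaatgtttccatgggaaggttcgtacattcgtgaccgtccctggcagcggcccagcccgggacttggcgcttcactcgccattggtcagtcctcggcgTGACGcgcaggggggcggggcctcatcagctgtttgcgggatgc
BAX, chr19:48954625-48954814, plus strand: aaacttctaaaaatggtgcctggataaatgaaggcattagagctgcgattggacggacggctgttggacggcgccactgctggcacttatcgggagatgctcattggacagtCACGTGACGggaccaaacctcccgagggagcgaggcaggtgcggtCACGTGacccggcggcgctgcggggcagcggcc
BCL2A1, chr15:79971204-79971233, minus strand: tccatgtatcatCATGTGtcataactcagt

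On either strand of the full windows, the E-box CACGTG occurred in BAX, at 4 places, and in BBC3, and in 6.34% of all 35116 windows. The related letters CATGTG, which MITF can bind, occurred in BCL2A1 and in 9.42% of windows. The CRE half-site TGACG, the core of ATF and CREB sites, occurred in BCL2, BCL2L1, BAX, PMAIP1 and BMF, and in 21.2% of windows; in BAX it overlaps an E-box. The full CRE TGACGTCA occurred in no member and in 1.65% of windows. The FOXO letters TGTTTAC were found in BCL2L11 alone of the members (2.98% of windows), the NF-kB consensus in BMF (9.96%) and the p53 half-site in BAK1 (5.57%). The windows that hold the half-site are 72.8% G and C in PMAIP1, which rose, and 65.2% in BMF, which fell. They are 70% in BCL2, 62.8% in BAX and 50% in BCL2L1, against a median of 58% for all windows. The part of these letters in the members' changes was not tested. BMF has a second annotated start, whose window is 48.8% G and C and holds none of these letters. The sequence just after that start was not found in the GENCODE transcripts, unlike that of the other starts. The BCL2A1 window holds 38.8%.

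Among the anti-apoptotic genes, BCL2A1 and BCL2L1 fell, MCL1 rose slightly and BCL2 did not pass. BCL2A1 (NCBI gene 597, chromosome 15, 79960892 to 79971196, GRCh38), which encodes the MCL1-like guard BFL1, had 8.73, 9.48 and 8.08 CPM in shCtrl replicates 1 to 3 and 5.67, 5.37 and 5.10 in shPRAME replicates 1 to 3, the order used throughout. The highest shPRAME library lay below the lowest shCtrl library, and the gene was 1.63-fold lower (log2 fold change -0.71, SE 0.0949, edgeR adjusted p = 3.34e-06). Its change was lower than that of all but 13.2% of tested genes. BCL2L1 (gene 598, chromosome 20, 31664452 to 31723963), whose long isoform is BCL-XL and whose short isoform is pro-apoptotic, had 33.4, 31.9 and 33.7 CPM in shCtrl and 24.6, 26.6 and 28.3 in shPRAME. The groups did not overlap, and the level was 1.24-fold lower (log2 fold change -0.31, SE 0.0518, edgeR adjusted p = 3.36e-05). Counts per gene do not separate the isoforms. The antisense gene BCL2L1-AS1, which overlaps it, held at most 46 counts in a library, 5.60% or less of the BCL2L1 count.

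MCL1 (gene 4170, chromosome 1, 150574558 to 150579610), which encodes a short-lived guard that binds BAK1, BIM and NOXA, had 552.4, 570.3 and 553.3 CPM in shCtrl and 603.6, 602.9 and 592.4 in shPRAME. The shPRAME libraries were all higher, but only 1.07-fold (log2 fold change 0.102, SE 0.0227, edgeR adjusted p = 0.000647). BCL2 (gene 596, chromosome 18, 63123346 to 63320090), the founding member of the family, stood at 6.18, 5.54 and 6.16 CPM in shCtrl and at 6.56, 7.37 and 6.37 in shPRAME. These values did not overlap, yet the difference missed the threshold (log2 fold change 0.18, SE 0.0974, edgeR adjusted p = 0.0986). With scaling to the library total alone, BCL2 passed (log2 fold change 0.23, edgeR adjusted p = 0.0407).

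The effectors moved in opposite directions by small amounts. BAX (gene 581, chromosome 19, 48954875 to 48961798), a cytosolic protein that moves to mitochondria when activated, had 49.1, 48.7 and 47.6 CPM in shCtrl and 56.7, 54.8 and 55.6 in shPRAME. It was higher in every shPRAME library, by 1.15-fold (log2 fold change 0.20, SE 0.0335, edgeR adjusted p = 3.81e-05). BAK1 (gene 578, chromosome 6, 33572552 to 33580276), which sits in the mitochondrial membrane, had 22.6, 21.9 and 22.4 CPM in shCtrl and 20.6, 18.6 and 20.9 in shPRAME. It was 1.12-fold lower (log2 fold change -0.16, SE 0.0559, edgeR adjusted p = 0.0169). This call rested on shPRAME replicate 2, the lowest library: without it the log2 fold change was -0.10 (edgeR adjusted p = 0.146). It also ended with scaling to the library total (log2 fold change -0.11, edgeR adjusted p = 0.0924).

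The BH3-only genes held the largest increase and the largest decrease of the family. PMAIP1 (gene 5366, chromosome 18, 59899996 to 59904305) encodes NOXA, which binds MCL1 and BFL1. It had 18.9, 20.2 and 20.3 CPM in shCtrl and 39.4, 40.5 and 38.0 in shPRAME, a wide gap with little spread on either side. The gene was 1.985-fold higher (log2 fold change 0.99, SE 0.0474, edgeR adjusted p = 4.49e-12), a larger increase than in 89.8% of tested genes. BMF (gene 90427, chromosome 15, 40087890 to 40108879) encodes a BH3-only protein that binds dynein light chain on the cytoskeleton. It had 7.90, 7.04 and 8.11 CPM in shCtrl and 3.55, 2.99 and 3.24 in shPRAME. Every shPRAME library held less than any shCtrl library, and the gene was 2.36-fold lower (log2 fold change -1.24, SE 0.107, edgeR adjusted p = 1.34e-08). Only 6.41% of tested genes had a lower log2 fold change.

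BCL2L11 (gene 10018, chromosome 2, 111120914 to 111168445) encodes BIM, which binds all anti-apoptotic members. It had 17.8, 18.3 and 17.0 CPM in shCtrl and 19.7, 21.0 and 20.5 in shPRAME. The groups did not overlap, and the level was 1.15-fold higher (log2 fold change 0.20, SE 0.0554, edgeR adjusted p = 0.00309). BBC3 (gene 27113, chromosome 19, 47220824 to 47232860) encodes PUMA, a p53 target, and was the member with the lowest counts: 59, 54 and 68 in shCtrl and 95, 76 and 86 in shPRAME. These are 1.75, 1.65 and 2.21 CPM against 3.04, 2.21 and 2.49 CPM, and shCtrl replicate 3 reached the level of shPRAME replicate 2. The gene passed (log2 fold change 0.46, SE 0.164, edgeR adjusted p = 0.0173), but not without shCtrl replicate 1 (edgeR adjusted p = 0.0615), shCtrl replicate 2 (0.0777) or shPRAME replicate 1 (0.0950), nor with DESeq2 (DESeq2 adjusted p = 0.0545).

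**Figure D2:**
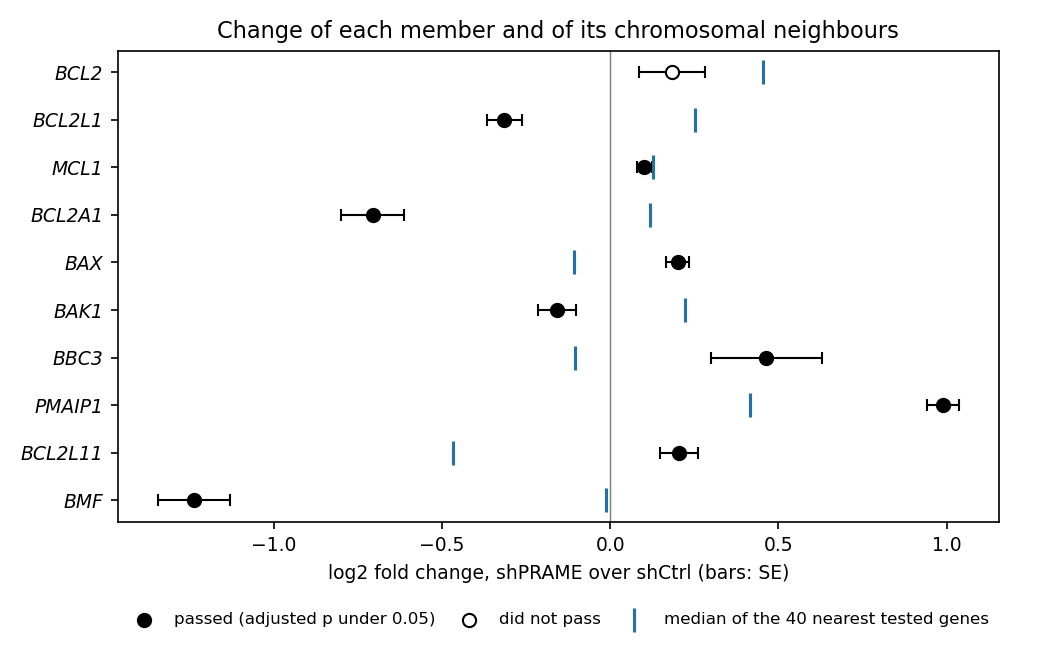
Log2 fold change (shPRAME over shCtrl, bars are SE) of each of the 10 genes, with the median log2 fold change of its 40 nearest tested genes as a blue tick. BMF (-1.24), BCL2A1 (-0.71) and BCL2L11 (0.20) lie farthest from their ticks (-0.014, 0.12 and -0.47). PMAIP1 (0.99), BCL2L1 (-0.31) and BBC3 (0.46) lie nearer to theirs (0.42, 0.25 and -0.10), and MCL1 (0.102) lies on its own (0.13).

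Genes next to the members on the chromosome also differed between the groups. For each member the median log2 fold change of the 40 nearest tested genes, 20 on either side, was taken. It was 0.45 around BCL2, 0.42 around PMAIP1 on the same chromosome, 0.25 around BCL2L1, 0.22 around BAK1, 0.13 around MCL1 and 0.12 around BCL2A1. It was -0.47 around BCL2L11, -0.11 around BAX, -0.10 around BBC3 and -0.014 around BMF. With this local median removed, 4 members were higher and 5 lower, and 71.5% of all tested genes passed. BCL2 then passed as lower (log2 fold change -0.27, edgeR adjusted p = 0.0205), and MCL1 no longer passed (log2 fold change -0.026, edgeR adjusted p = 0.315). The increase of BCL2L11 grew to 0.67 (edgeR adjusted p = 8.81e-09) and that of PMAIP1 shrank to 0.57 (edgeR adjusted p = 9.06e-09). BAX rose to 0.31 (edgeR adjusted p = 2.92e-07), while BCL2L1 stood at -0.57 (edgeR adjusted p = 3.36e-08) and BAK1 at -0.38 (edgeR adjusted p = 1.10e-05). BCL2A1 stood at -0.82 (edgeR adjusted p = 6.06e-07) and BBC3 at 0.57 (edgeR adjusted p = 0.00528). BMF hardly moved, at -1.22 (edgeR adjusted p = 1.89e-08). The part of the local shifts in the members' changes was not tested.

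Levels of different genes were compared per length, as CPM per kb of the longest GENCODE transcript. In shCtrl the order was MCL1 (142.1 ± 2.57), BAX (35.7 ± 0.556), BCL2L1 (12.6 ± 0.363), PMAIP1 (10.2 ± 0.400), BAK1 (10.1 ± 0.154), BCL2A1 (8.48 ± 0.683), BCL2L11 (3.38 ± 0.122), BMF (1.64 ± 0.121), BBC3 (1.02 ± 0.161) and BCL2 (0.799 ± 0.0492; CPM per kb, mean ± SD, n = 3). PMAIP1 and BAK1 overlapped between libraries, and no other pair of neighbours in this order did. In shPRAME PMAIP1 (20.2 ± 0.642) stood next after BAX, above BCL2L1 (10.2 ± 0.718), and BMF (0.696 ± 0.0604) stood last, below BCL2 (0.907 ± 0.0709). BCL2L1 and BAK1 (9.04 ± 0.562) were the only neighbours that overlapped there. This order depends on the length used. Per kb of coding length, an alternative chosen after seeing the data, PMAIP1 (96.3 ± 3.08) stood above BAX (85.2 ± 1.43) in shPRAME, and BBC3 (3.29 ± 0.543) stood last, below BMF (5.91 ± 0.512). MCL1 stood first in both groups on either length.

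MCL1 made up most of the anti-apoptotic mRNA on this scale. Its share of the summed CPM per kb of the 4 anti-apoptotic genes was 86.4%, 86.8% and 86.7% in shCtrl and 90.7%, 90.4% and 90.1% in shPRAME. The share of BCL2L1 was 7.71% ± 0.348 in shCtrl and 6.02% ± 0.462 in shPRAME, that of BCL2A1 5.17% ± 0.337 and 3.08% ± 0.146, and that of BCL2 0.488% ± 0.0378 and 0.537% ± 0.0389. The MCL1 share was higher in every shPRAME library. The other 3 guards summed to 21.9 ± 0.332 CPM per kb in shCtrl and 16.3 ± 0.438 in shPRAME. PMAIP1 made up most of the BH3-only mRNA, at 61.7%, 63.7% and 62.8% in shCtrl and 76.6%, 78.0% and 76.5% in shPRAME. BCL2L11 held 20.9% ± 1.14 and 14.9% ± 0.607, BMF 10.1% ± 0.777 and 2.66% ± 0.243, and BBC3 6.26% ± 0.865 and 5.37% ± 0.882. The share of BCL2L11 was thus lower in shPRAME although its own level was higher. Shares and sums over chosen genes were given no test.

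**Figure D3:**
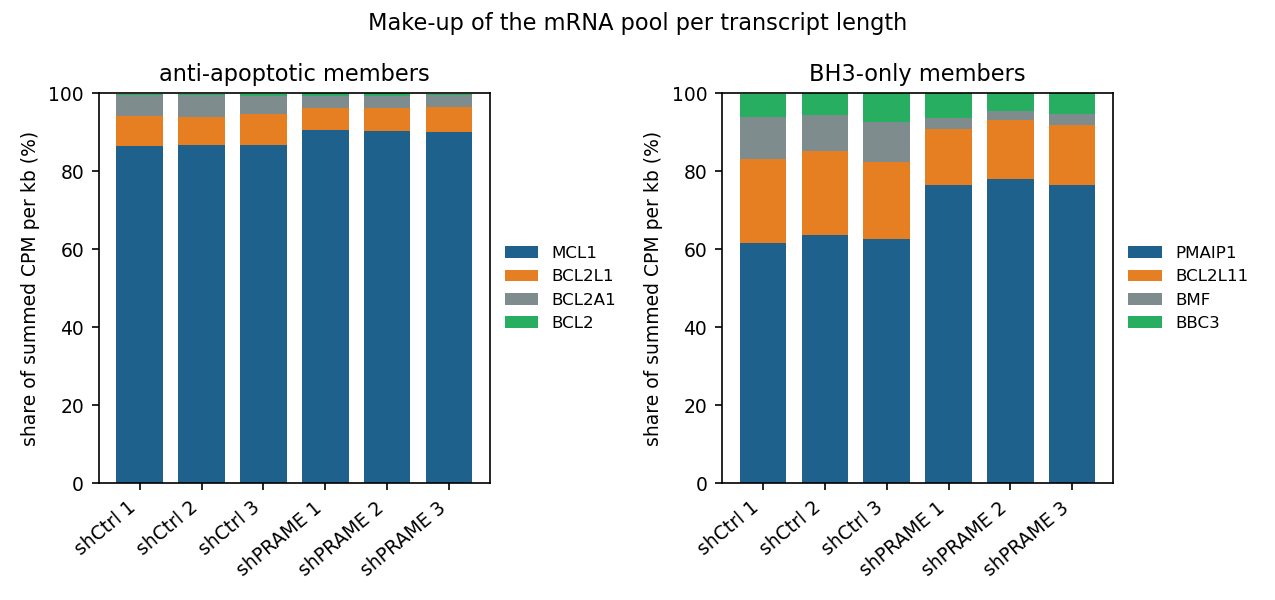
Share (%) of each gene in the summed CPM per kb of the 4 anti-apoptotic genes (left) and of the 4 BH3-only genes (right), 1 bar per library. The MCL1 part is 86.6% of the left bars in shCtrl and 90.4% in shPRAME on average, and the PMAIP1 part of the right bars 62.7% and 77.1%.

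Summed over each role, BH3-only mRNA differed most between the groups. The 4 BH3-only genes summed to 15.7, 16.3 and 16.6 CPM per kb in shCtrl and to 26.4, 26.6 and 25.5 in shPRAME, or 1.615-fold more. Without PMAIP1 the other 3 summed to 6.04 ± 0.144 CPM per kb in shCtrl and 5.997 ± 0.163 in shPRAME. The anti-apoptotic genes summed to 162.6, 167.2 and 162.2 CPM per kb in shCtrl and to 169.3, 169.7 and 167.3 in shPRAME, or 1.03-fold more. The effectors summed to 46.3, 45.8 and 45.2 CPM per kb against 51.0, 48.8 and 50.4, or 1.09-fold more. For each unit of MCL1 mRNA per kb there was 0.0715 ± 0.00256 of PMAIP1 in shCtrl and 0.132 ± 0.00307 in shPRAME. PMAIP1 over BCL2A1, its other partner, went from 1.204 ± 0.114 to 3.88 ± 0.167. BAX over BCL2, a ratio often quoted as an index of death signalling, overlapped between the groups (44.8 ± 3.12 and 45.4 ± 3.96).

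Of 7 further BCL2 family genes 5 were tested, of which 3 rose, 1 fell and 1 did not pass. The shares over all tested genes were 37.7% higher and 36.8% lower in shPRAME. BID, which caspase-8 cleaves to link death receptors to mitochondria, had 6.911 ± 0.246 CPM in shCtrl and 14.3 ± 1.05 in shPRAME (log2 fold change 1.05, edgeR adjusted p = 1.95e-09). BOK, an effector that can form pores without BAX or BAK1, rose from 0.458 ± 0.193 to 1.66 ± 0.198 CPM (log2 fold change 1.84, edgeR adjusted p = 4.13e-06), on 11 to 23 counts per shCtrl library and 50 to 65 per shPRAME library. HRK, a BH3-only gene best known in neurons, rose from 0.914 ± 0.347 to 2.14 ± 0.536 CPM (log2 fold change 1.21, edgeR adjusted p = 0.000295). BAD, whose protein survival kinases phosphorylate, fell from 10.3 ± 1.33 to 6.02 ± 0.478 CPM (log2 fold change -0.78, edgeR adjusted p = 2.45e-06). Its gene overlaps GPR137, which held 788 to 995 counts in shCtrl and 405 to 489 in shPRAME, and whether counting used strand is not given, so BAD is uncertain. BCL2L2, the guard BCL-W, stood at 37.4 ± 0.344 and 35.8 ± 1.31 CPM and did not pass (edgeR adjusted p = 0.156); with the local median removed it was lower (log2 fold change -0.15, edgeR adjusted p = 0.00253). Reads of BCL2L2 can be split with the readthrough gene BCL2L2-PABPN1, which held up to 214 counts. BCL2L10 (1 count in 1 library of each group) and BIK (at most 3 counts in a library) were too low to test.

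Of 5 tested BCL2-related genes, more distant relatives, 3 fell, 1 rose and 1 did not pass, where 74.4% of all tested genes passed. None passed at 1.5-fold or more, against 32.6% of all tested genes. The mitophagy receptor genes BNIP3 (65.0 ± 1.67 to 54.5 ± 0.262 CPM) and BNIP3L (80.7 ± 2.16 to 72.0 ± 1.34 CPM) fell and BCL2L13 rose (53.3 ± 1.54 to 58.2 ± 2.68 CPM). With the local median removed BNIP3L went from -0.16 to -0.28 on the log2 scale. The log2 fold change of BNIP3, -0.25, was close to the median of its neighbours, -0.25, and with that removed the gene did not pass (log2 fold change -0.0096, edgeR adjusted p = 0.803).

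Genes that act at mitochondria or downstream of the pore were described by the same test, in which 37.7% of all tested genes were higher and 36.8% lower. Of 10 genes of the outer membrane channels, of released factors and of mitochondrial shape, 3 rose, 5 fell and 2 did not pass. VDAC1, an anion channel, fell from 369.9 ± 6.01 to 278.4 ± 5.203 CPM (log2 fold change -0.41, or -0.068 with the local median removed) and AIFM1, apoptosis-inducing factor, from 73.4 ± 1.59 to 40.5 ± 0.839 CPM (log2 fold change -0.86, or -0.41 with the local median removed). HTRA2, a released protease that cleaves IAP proteins, rose from 17.0 ± 0.205 to 25.3 ± 0.671 CPM, and OPA1, which shapes the inner membrane, from 114.4 ± 2.24 to 124.1 ± 0.541 CPM. Of 8 apoptosome and caspase genes none rose, 5 fell and 3 did not pass, with a median log2 fold change of -0.26. DFFB, the caspase-activated nuclease, fell from 8.005 ± 0.418 to 4.54 ± 0.0219 CPM (log2 fold change -0.82, or -0.25 with the local median removed). Of the 5 tested IAP genes, which restrain caspases or act in cell division, 2 rose and 3 fell. XIAP fell from 119.8 ± 5.21 to 73.8 ± 2.10 CPM (log2 fold change -0.70, or -0.20 with the local median removed) and BIRC3 from 2.29 ± 0.593 to 0.531 ± 0.0666 CPM. BIRC5, survivin, rose from 100.7 ± 2.84 to 191.0 ± 6.34 CPM. BIRC2 rose from 50.2 ± 1.34 to 79.2 ± 0.189 CPM, where the median log2 fold change of its neighbours was 0.63 against 0.66 for the gene, and with that removed BIRC2 did not pass (log2 fold change 0.033, edgeR adjusted p = 0.367).

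Genes that act on the proteins of the family were mixed. Of 8 genes of MCL1 turnover 4 rose, 2 fell and 2 did not pass, where 37.7% of all tested genes rose and 36.8% fell. GSK3B, a kinase that marks MCL1 for degradation, rose from 163.1 ± 4.01 to 379.9 ± 13.4 CPM (log2 fold change 1.22, edgeR adjusted p = 3.42e-16). HUWE1, the ubiquitin ligase MULE, fell from 1127 ± 5.85 to 750.3 ± 12.3 CPM and the deubiquitinase USP9X from 292.2 ± 9.41 to 214.5 ± 1.71 CPM, both X-linked and among neighbours with medians of -0.40 and -0.24, while the deubiquitinase USP13 rose from 46.6 ± 1.59 to 58.7 ± 0.809 CPM. With the local median removed the log2 fold change went from -0.59 to -0.18 for HUWE1 and from -0.45 to -0.20 for USP9X, and USP13 no longer passed (log2 fold change 0.071, edgeR adjusted p = 0.0837). Of 8 tested genes for partners of BIM, BMF and BAD, 2 rose, 2 fell and 4 did not pass. The 14-3-3 genes YWHAH (67.9 ± 0.967 to 93.3 ± 3.30 CPM) and YWHAQ (435.2 ± 9.22 to 470.1 ± 9.69 CPM) rose, and YWHAZ (2586 ± 100.3 to 2086 ± 36.5 CPM) and YWHAG (660.2 ± 13.7 to 611.4 ± 7.20 CPM) fell. With the local median removed YWHAG was higher (log2 fold change 0.19), YWHAZ went from -0.31 to -0.69, and YWHAQ did not pass (log2 fold change 0.0073, edgeR adjusted p = 0.799).

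Of 14 transcription factors known to act on family genes, 4 rose, 7 fell and 3 did not pass. The shares over all tested genes were 37.7% higher and 36.8% lower. MYC rose from 18.2 ± 0.557 to 76.1 ± 1.03 CPM (log2 fold change 2.07, edgeR adjusted p = 1.61e-17). ATF4, the stress factor that can activate PMAIP1, rose from 125.2 ± 2.42 to 159.8 ± 2.88 CPM. FOXO1, a known activator of BH3-only genes, fell from 25.01 ± 1.15 to 13.2 ± 0.865 CPM and the p53 relative TP73 from 11.8 ± 1.11 to 6.58 ± 0.356 CPM. MITF, which can activate BCL2A1, fell by 0.24 on the log2 scale (edgeR adjusted p = 2.05e-05). With the local median removed the log2 fold change went from 2.07 to 1.34 for MYC, from 0.35 to 0.21 for ATF4, from -0.84 to -0.27 for TP73 and from -0.24 to -0.41 for MITF. No link between these factors and the members was tested.

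**Figure D4:**
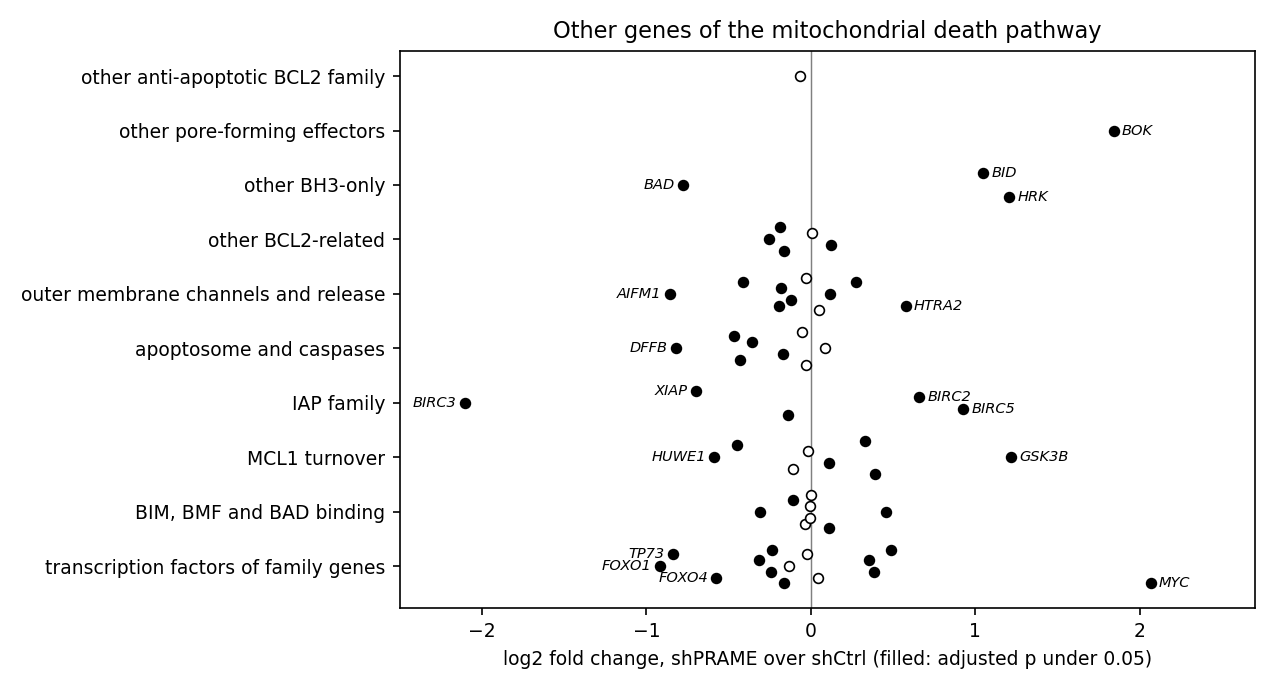
Log2 fold change (shPRAME over shCtrl) of the tested genes of 10 further lists of the mitochondrial death pathway, 1 point per gene, filled where the adjusted p is under 0.05; genes far from 0 are named. No gene of the apoptosome and caspase list passed as higher, and MYC (2.07), BOK (1.84), GSK3B (1.22), HRK (1.21) and BID (1.05) lie far to the right.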

How the data were processed

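The 6 libraries were made from polyA RNA and read from both ends (150 bases each) by an Illumina instrument, per the labels' protocols. The deposited values are counts per NCBI gene identifier, taken as not normalized because they are whole numbers with totals that differ between libraries. Named in the submitters' processing notes were Salmon, STAR and fastp, with hg38 and GRCh38 as builds. Which tool counted, its annotation and its use of strand are not given there. Each file had 40929 rows; 34 repeated identifiers were summed, and 40789 of 40895 identifiers matched RefSeq GRCh38.p14. Chi-square comparison of library pairs gave more than sampling noise for every pair, so no library was counted as a repeat.

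The test was the 2-sided quasi-likelihood test of edgeR 4.0.16 (R 4.3.3), with filterByExpr, TMM and group as the single term. SE is the log2 fold change over the root of F. Transcript lengths are of the longest GENCODE release 29 transcript. Coding length is the longest coding length of any GENCODE transcript of the gene, 408 bases for PMAIP1 and 783 for BBC3. The fit was tested on simulated data. Precision is limited by 3 libraries per group and, for low genes, by counts.

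The members and gene lists were chosen with earlier results of these data known. By rule, named genes are PRAME, the members, every other family gene and the 2 most abundant markers per marker list. The rule also names up to 4 genes per further list (2 higher and 2 lower by adjusted p, with a mean of 1 CPM or more). Others were named after their values were seen (S100B, the pigment genes, COL1A2, COL3A1, LUM, PTPRC, CD3E, MS4A1, KRT5, KRT1, VWF and CDH5). Some genes that the rule names are not reported here. Alternatives were other scalings, filters and tests (DESeq2 1.42.0, limma-voom 3.58.1, glmTreat), the replicate number as a block, removal of the local median, and leaving out each library.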

Additional observations from a re-analysis of the deposited data

How the results depend on the processing

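Of 150 values of the 10 members under 15 alternatives, 135 kept direction and side of the threshold. The reversals were BCL2 (-0.27) and MCL1 (-0.026) with the local median removed, which also reversed SOX10 (-0.14) and YWHAG (0.19); the cause was not tested. Against a minimum fold of 1.2, 1 member was higher (PMAIP1) and 2 lower (BMF and BCL2A1), where 48.4% of all tested genes passed, 3921 higher and 3805 lower; fewer pass by construction. Without single libraries 4 to 5 members were higher and 3 to 4 lower.

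Same-numbered libraries of the groups deviated with correlations of -0.0589, -0.119 and -0.0999, so no pairing by number was seen in the values. Whether same-numbered libraries shared a preparation was not tested. With the replicate block 5 members were higher and 4 lower, as without it.

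With coding length in place of transcript length, shares of the anti-apoptotic genes in shCtrl and shPRAME were 88.1% and 90.8% for MCL1, 2.76% and 1.63% for BCL2A1, and 1.38% and 1.501% for BCL2. Shares of the BH3-only genes were 51.3% and 68.9% for PMAIP1, 31.5% and 24.6% for BCL2L11, 14.7% and 4.23% for BMF, and 2.52% and 2.36% for BBC3. The fold of the BH3-only sum, an alternative chosen after seeing the data, became 1.48. BBC3, at 54 to 95 counts per library, is limited by depth.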
